A study of Mus musculus with 36 samples.

Results

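The genes described here encode 9 enzymes of the tricarboxylic acid (TCA) cycle and their isoenzymes: Cs, Idh1, Idh2, Idh3a, Ogdh, Suclg1, Fh1, Mdh1 and Mdh2. They were taken by gene symbol, and all 9 were found among the 12762 genes of the expression table. The 36 mRNA-seq libraries came from B3, a mouse line of pre-B cells. Both lines derived from B3, control and Ikaros, had 3 libraries per time at 0, 2, 6, 12, 18 and 24 h. Ikaros cells carried an MSCV retroviral vector for HA-tagged wild type Ikaros fused to ERt2, the hormone-binding domain of the estrogen receptor, followed by IRES-GFP. Control cells carried the vector with ERt2 and IRES-GFP but no Ikaros. The drug 4-hydroxy-tamoxifen (4-OHT) moves the fusion protein into the nucleus. In both lines the vector came by retroviral transduction, and a population sorted for GFP was expanded, so line and sorted population cannot be told apart. Every label names 0.5 uM 4-OHT, those of 0 h too, but in the study's methods the 0 h cells had no drug and were cultured on separate occasions. A comparison with 0 h therefore also compares occasions. Replicates were cultures from batches 1, 2 and 4 at 0 h and from batches 1, 3 and 4 later.

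The TCA cycle is a ring of reactions in the mitochondrial matrix that oxidizes acetyl groups from sugars, fats and amino acids, and passes the electrons to the respiratory chain. It also supplies building blocks, since citrate, 2-oxoglutarate and oxaloacetate leave the ring for lipid, glutamate and aspartate synthesis. Dividing lymphocyte precursors use it in both ways, and Ikaros is a zinc finger transcription factor that limits the proliferation of pre-B cells and promotes their differentiation. Some reactions also have a cytosolic enzyme encoded by a separate gene, which is the case for Idh1 and Mdh1.

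After 24 h of induction, Ikaros cells had 4.82-fold more Idh1 mRNA than control cells (95% interval 3.28 to 7.09, n = 3 per line). They had 3.25-fold less Idh3a mRNA (2.83 to 3.75), 1.72-fold less Mdh2 (1.54 to 1.92) and 1.61-fold less Fh1 (1.44 to 1.80). Suclg1 was 1.39-fold lower, Ogdh 1.30-fold lower and Mdh1 1.23-fold higher, while Cs and Idh2 did not pass the test. In the time course of the members by library, Idh3a, Fh1 and Mdh2 fell and Idh1 rose. Against control, Idh3a and Fh1 were already called lower at 12 h, and Mdh2 only from 18 h. Control cells had 0 of 9 called against 0 h at each later time, where 0.0470% to 5.10% of all genes were called. There 1, 4, 1, 2 and 0 members had an unadjusted p under 0.05 at the 5 later times (limma). With culture batch as a replicate block, 2 members were called in control cells at 6 h.

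**Figure D1:**
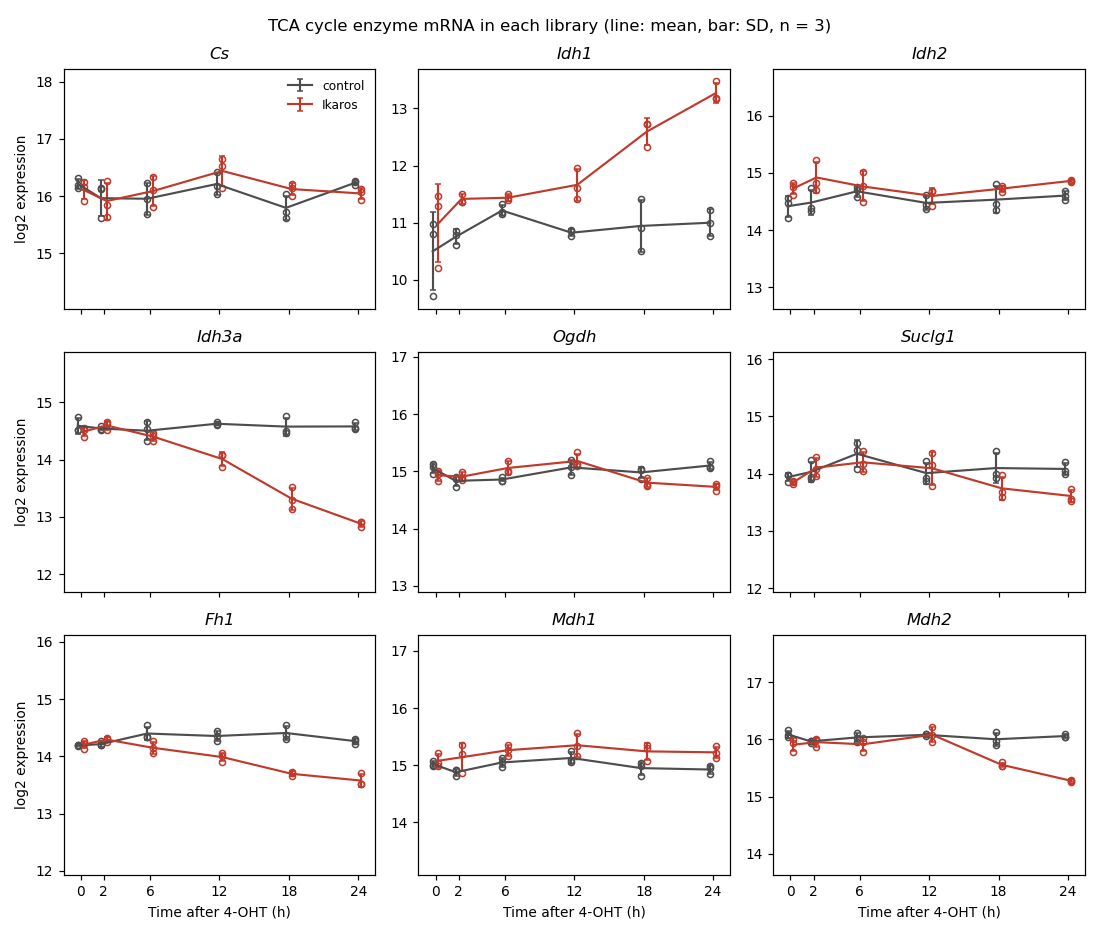
Log2 expression (y axis) of the 9 TCA cycle genes against time after 4-OHT in hours (x axis), with control cells in grey and Ikaros cells in red. Circles are libraries, lines join group means and bars are the SD (n = 3). Every panel spans the same range of log2 units, and the red and grey circles of Idh3a are apart from 12 h on.

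Expression is given as log2 values normalized by the authors for GC content, gene length and library preparation, so a difference of 1 is a 2-fold change if the base is 2. Library medians lay between 11.70 and 11.73, and the depth each library reached cannot be read from the table. As a check of the line labels, Ikzf1, which encodes Ikaros, differed by 5.19 to 6.26 on the log2 scale between the lines at the 6 times, and the higher value was always in Ikaros cells. All 11 B lineage markers were listed, with Cd79a at or above 99.5% of genes and Pax5 at or above 98.1% by mean level. The table listed 1 of 7 T cell markers (Lck), 2 of 7 myeloid markers (Lyz2 and Itgam) and 2 of 6 erythroid markers (Epor and Klf1), and the other defining markers of those types were not listed. The log2 summed level of the myeloid markers was 6.43 to 7.15 in control and 8.87 to 9.88 in Ikaros libraries at 0 h, and 7.28 to 8.74 and 9.22 to 9.67 at 24 h. The B lineage sum was 19.35 to 19.59 in control and 19.06 to 19.25 in Ikaros libraries at 0 h, and 19.46 to 19.60 and 19.91 to 19.99 at 24 h. The lines were thus apart in the myeloid sum at both times, while the B lineage sum was lower in Ikaros cells at 0 h and higher at 24 h. Each sum adds linear values, so the most abundant markers weigh most and single markers can move otherwise. The paper reports that Igll1, a B lineage marker here, went down early after induction. The T cell sum was 10.82 to 10.96 in control and 11.45 to 11.75 in Ikaros libraries at 0 h, and 10.86 to 11.21 and 10.88 to 11.18 at 24 h. The erythroid sum was 8.11 to 8.43 and 8.01 to 8.46 at 0 h, and 8.04 to 8.74 and 8.59 to 8.93 at 24 h. The part of these shifts in the results below was not tested, and in bulk libraries fewer cells of a type and less RNA per cell cannot be told apart.

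Among control cells, most of the 9 genes ranked high for mRNA level. Over the 18 control libraries the length-adjusted log2 level was 16.06 ± 0.25 (SD) for Cs and 16.04 ± 0.07 for Mdh2, at or above the level of 97.5% and 97.4% of genes. Mdh1 (14.99 ± 0.11), Ogdh (14.98 ± 0.13), Idh3a (14.57 ± 0.10), Idh2 (14.53 ± 0.17), Fh1 (14.31 ± 0.11) and Suclg1 (14.08 ± 0.20) followed. Idh1 came last at 10.87 ± 0.38, at or above the level of 38.0% of genes. The ranges of neighbours in this order overlapped except between Mdh2 and Mdh1 and between Suclg1 and Idh1. All 9 genes passed a filter at the 25th percentile of mean expression.

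Ikaros cells were tested against control cells at each time with limma over all 12762 genes, with Benjamini-Hochberg adjustment and a call at an adjusted p under 0.05. At 0 h 0 of 9 members were called, against 8.33% of all genes, and 2 members had an unadjusted p under 0.05. When culture batch was a replicate block and the 0 h cultures stood apart, 1 was called at 0 h (Idh2). At 2 h 1 member (Idh2) was called against 19.1% of genes, and 2 (Idh1 and Idh2) with that block. At 6 h 1 member (Fh1) was called against 37.3% of genes. The count rose to 3 of 9 at 12 h, against 45.8% of genes, and to 6 of 9 at 18 h, against 58.2%. At 18 h 2 members were higher and 4 lower in Ikaros cells, where 29.0% of all genes were called higher and 29.2% lower. At 24 h 7 of 9 were called against 62.9%, with 2 higher (31.0% of all genes) and 5 lower (31.9%). The share of members called was thus near the background, and what follows concerns which members moved and by how much. The median difference of the members at 24 h was -0.37 on the log2 scale, and that of all genes was -0.01.

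A second comparison asked whether the difference between the lines changed after induction, since each line serves as its own baseline there. From 0 h, the difference changed in 0 members by 2 h (3.10% of all genes called) and in 0 by 6 h (15.9%), where 0 and 2 members had an unadjusted p under 0.05 (limma). It changed in 2 by 12 h (29.7%), 3 by 18 h (43.0%) and 4 by 24 h (48.4%). The 12 h count was 0 without replicate 1 and 0 without replicate 2. Those at 24 h were Idh1, Idh3a, Fh1 and Mdh2. From 2 h to 24 h, a comparison that uses no 0 h culture, the difference changed in 6 members (47.3% of all genes called), which added Ogdh and Suclg1. The plot of both comparisons gives the intervals.

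**Figure D2:**
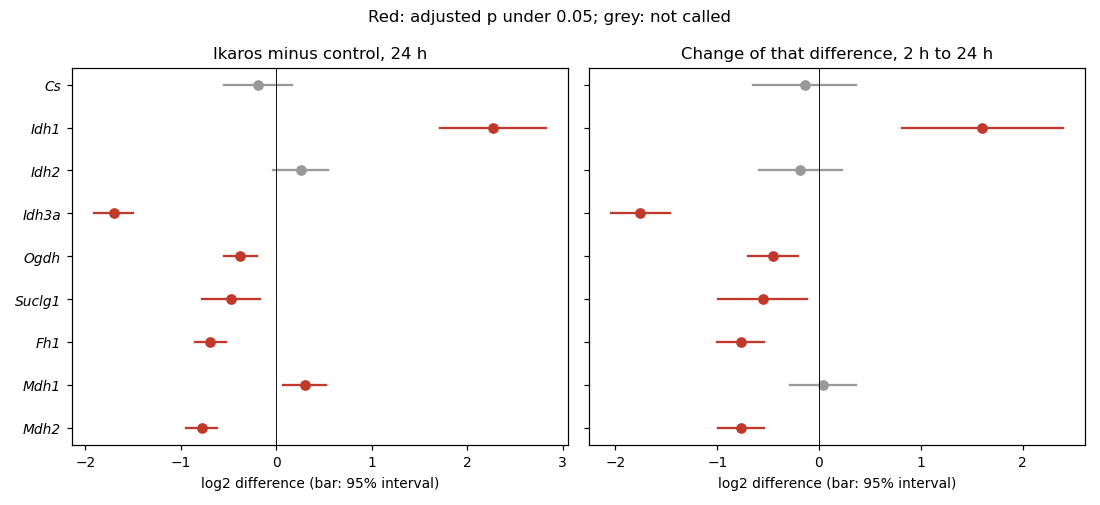
Log2 difference between Ikaros and control cells at 24 h (left) and the change of that difference from 2 h to 24 h (right) for each of the 9 genes. Points are limma estimates, bars 95% intervals, and red marks an adjusted p under 0.05. Idh1 lies alone far to the right of 0 and Idh3a far to the left in both panels.

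Within each line, the later times were set against 0 h. In Ikaros cells 0 members were called at 2 h and 0 at 6 h, against 19.2% and 32.8% of all genes, and 0 and 1 had an unadjusted p under 0.05 (limma). When culture batch was a replicate block these counts were 1 (Suclg1, higher) and 2 (Suclg1 and Idh1, both higher). At 12 h 5 of 9 were called (46.1% of genes), with Idh1, Ogdh and Mdh1 higher and Idh3a and Fh1 lower. That count was 2 to 3 when a replicate was left out, and Mdh1 was not called with the block (adjusted p 0.0568). At 18 h 4 were called (54.6%), Idh1 higher and Idh3a, Fh1 and Mdh2 lower, and at 24 h 5 (60.6%), with Ogdh lower in addition. In control cells, the background of drug and culture, 0 of 9 were called at each later time. All genes were called there at 0.0470%, 5.10%, 0.0549%, 0.478% and 0.470% from 2 h to 24 h, and up to 4 members had an unadjusted p under 0.05. With the replicate block, 2 members were called in control cells at 6 h, again Suclg1 and Idh1 and again higher. All shares of genes given are from the fit without a block, so the counts with a block have no share beside them.

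Cs (ENSMUSG00000005683; GRCm38 chromosome 10, 128337734 to 128362479, forward strand) encodes citrate synthase, which joins acetyl-CoA to oxaloacetate at the entry of the cycle. Its log2 level at 24 h was 16.26, 16.20 and 16.25 in control and 16.08, 16.12 and 15.94 in Ikaros cells of batches 1, 3 and 4. The groups did not overlap, yet the difference of -0.19 had an interval of -0.55 to 0.17 (limma, adjusted p 0.354). At 18 h the estimate was on the other side of 0, at 0.33, and it was not called at any time. Cs was thus the member with the highest level and no detected difference. A small nucleolar RNA gene, Gm23182, lies within Cs on the same strand.

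Idh3a (ENSMUSG00000032279; chromosome 9, 54586334 to 54604661, forward strand) encodes the catalytic alpha subunit of the NAD-dependent isocitrate dehydrogenase, a regulated step of the cycle in the matrix. At 0 h its log2 level was 14.51, 14.52 and 14.75 in control and 14.40, 14.51 and 14.56 in Ikaros cells of batches 1, 2 and 4. At 12 h control cells of batches 1, 3 and 4 had 14.63, 14.65 and 14.60, and Ikaros cells 14.08, 14.08 and 13.87. At 24 h the values were 14.55, 14.66 and 14.54 in control and 12.82, 12.91 and 12.91 in Ikaros cells. The lines overlapped at 0 h and were apart from 12 h on, with every Ikaros library below every control library. Relative to control, Ikaros cells stood at -0.62 by 12 h, -1.26 by 18 h and -1.70 by 24 h (limma, SE 0.10 each, adjusted p 1.05e-05, 2.69e-11 and 4.43e-14). From 0 h to 24 h it changed by -1.60 (SE 0.14, adjusted p 4.32e-10). Control cells differed by -0.01 between 0 h and 24 h.

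The other subunits of that enzyme had smaller differences. Idh3b, a regulatory subunit, had a log2 level of 13.98, 14.03 and 14.04 in control and 13.80, 13.83 and 13.77 in Ikaros cells at 24 h. Idh3g, the other regulatory subunit, had 15.16, 15.20 and 15.21 in control and 15.37, 15.46 and 15.37 in Ikaros cells. The difference at 24 h was -0.22 for Idh3b and 0.21 for Idh3g (limma, adjusted p 0.0362 and 0.00804), so one was slightly lower and the other slightly higher. Taken within each library, Idh3a minus Idh3b was 0.56 ± 0.07 for control and -0.92 ± 0.06 for Ikaros libraries, and Idh3a minus Idh3g was -0.61 ± 0.07 and -2.52 ± 0.06 (SD, n = 3). These subunit pairs were picked after their values had been seen and carry no test.

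Idh1 (ENSMUSG00000025950; chromosome 1, 65158616 to 65186500, reverse strand) and Idh2 (ENSMUSG00000030541; chromosome 7, 80094846 to 80115392, reverse strand) encode the NADP-dependent isocitrate dehydrogenases of the cytosol and peroxisomes and of the mitochondria. Both convert isocitrate to 2-oxoglutarate and make NADPH, and both run in reverse when cells carboxylate 2-oxoglutarate. The log2 level of Idh1 at 0 h was 10.81, 10.97 and 9.72 in control and 11.30, 11.46 and 10.21 in Ikaros cells of batches 1, 2 and 4. Batch 4 was thus the lowest at 0 h in both lines, and the Ikaros value exceeded the control value by 0.49 in each of the 3 batches. At 12 h control cells of batches 1, 3 and 4 had 10.76, 10.87 and 10.85, and Ikaros cells 11.96, 11.41 and 11.61. At 24 h control cells had 11.00, 11.23 and 10.77, and Ikaros cells 13.16, 13.18 and 13.47. All Ikaros libraries lay above all control libraries at 2, 6, 12, 18 and 24 h, while at 0 h the groups overlapped. The difference was 0.66 at 2 h and 0.22 at 6 h, neither of them called (limma, adjusted p 0.0899 and 0.548). Control cells stood 0.71 above their own 0 h level at 6 h and 0.50 above it at 24 h, again not called (adjusted p 0.0947 and 0.489).

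Idh1 exceeded its control level by 0.84 on the log2 scale after 12 h, 1.65 after 18 h and 2.27 after 24 h (limma, SE 0.27 each, adjusted p 0.0129, 8.91e-06 and 4.50e-08). Within batches 1, 3 and 4 it was 2.16, 1.94 and 2.71 at 24 h. From 0 h to 24 h the difference grew by 1.78 (SE 0.38, adjusted p 0.000372), and from 2 h, without the uneven 0 h cultures, by 1.61 (adjusted p 0.00112). The call at 12 h was lost without replicate 1 (difference 0.65, adjusted p 0.209) and without replicate 2 (0.98, adjusted p 0.0585). The growth by 18 h was 1.16 (adjusted p 0.0161), and its call was lost in the same ways (0.86 and 1.27, adjusted p 0.254 and 0.0920) and in the fit of only the groups compared (adjusted p 0.120).

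The log2 level of Idh2 at 24 h was 14.59, 14.53 and 14.69 in control and 14.88, 14.85 and 14.86 in Ikaros cells. The groups were apart by a small margin, with a difference of 0.26 and an interval of -0.03 to 0.54 (limma, adjusted p 0.112). It was called with batch as a replicate block and the 0 h cultures apart (adjusted p 0.0285). At 2 h the difference was 0.44 (SE 0.14, adjusted p 0.0271). It did not pass without replicate 1 (0.50, adjusted p 0.129) or replicate 2 (0.41, adjusted p 0.319), or in the fit of only the groups compared (adjusted p 0.259). It did not change from 0 h to 24 h by an amount the test detected (-0.05, interval -0.46 to 0.35). An uncharacterized transcript, Gm45203, overlaps Idh2 on the same strand.

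Idh1 minus Idh2 within a library sets the isoenzymes of that reaction side by side in the same library. At 24 h it was -3.59, -3.29 and -3.93 in control and -1.72, -1.68 and -1.38 in Ikaros cells. Idh1 thus stayed below Idh2 in level, but the gap narrowed. From 0 h to 24 h the difference between the lines was 0.18, 0.22, 0.14, 0.72, 1.45 and 2.01. The lines did not overlap from 12 h on, where the exact permutation test gave p = 0.1, the smallest value that 3 against 3 can give, so no time could pass 0.05 (adjusted p 0.171 over the 12 isoenzyme tests).

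**Figure D3:**
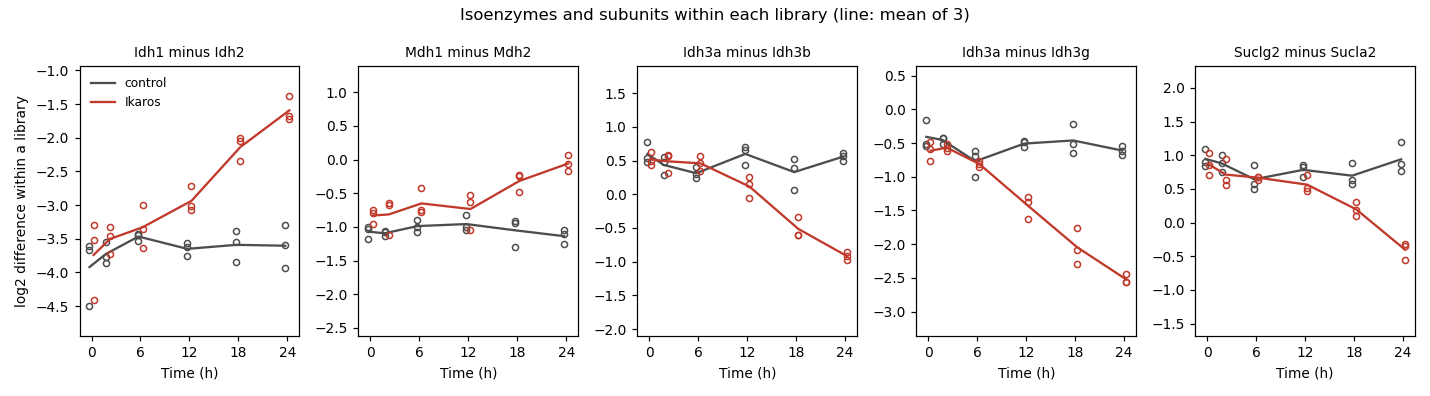
Log2 difference between a pair of genes within each library (y axis) against time in hours (x axis), with control in grey and Ikaros in red. Circles are libraries and lines join the means of 3. The red lines leave the grey ones upward for Idh1 minus Idh2 and Mdh1 minus Mdh2, and downward for Idh3a minus Idh3b, Idh3a minus Idh3g and Suclg2 minus Sucla2.

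Ogdh (ENSMUSG00000020456; chromosome 11, 6291633 to 6356642, forward strand) encodes the E1 component of the 2-oxoglutarate dehydrogenase complex, which makes succinyl-CoA. Its log2 level at 24 h was 15.07, 15.06 and 15.18 in control and 14.75, 14.78 and 14.66 in Ikaros cells. Every Ikaros library lay below every control library, with a difference of -0.37 (limma, SE 0.08, adjusted p 0.000384). The course was not monotonic. In Ikaros cells Ogdh was 0.25 above its 0 h level at 12 h (adjusted p 0.0171) and 0.20 below it at 24 h (-0.20, adjusted p 0.0395). Each of those calls was lost in every fit that left out a replicate, with adjusted p from 0.0696 to 0.161 at 12 h and from 0.0829 to 0.232 at 24 h, and in the fit of only the groups compared (adjusted p 0.145 and 0.0964). From 2 h to 24 h the difference between the lines changed by -0.45 (adjusted p 0.00308, and 0.0534 without replicate 2). Of the other components of the complex, Dlst and Dld are counted among the remaining cycle enzymes below.

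Suclg1 (ENSMUSG00000052738; chromosome 6, 73248382 to 73276911, forward strand) encodes the alpha subunit of succinyl-CoA synthetase, which pairs with Sucla2 in the ADP-forming enzyme and with Suclg2 in the GDP-forming enzyme. Its log2 level at 24 h was 14.05, 14.00 and 14.20 in control and 13.53, 13.56 and 13.74 in Ikaros cells. The groups did not overlap at 24 h, with a difference of -0.47 (limma, SE 0.15, adjusted p 0.00794). Within batches 1, 3 and 4 the difference was -0.52, -0.44 and -0.46. The call was lost without replicate 1 (-0.45, adjusted p 0.112). At 18 h the groups overlapped, and the difference of -0.35 was called narrowly (adjusted p 0.0455). That call was lost without replicate 1 (adjusted p 0.189), without replicate 2 (adjusted p 0.140), with quantile normalization (adjusted p 0.0548) and in the fit of only the groups compared (adjusted p 0.140). The change from 2 h to 24 h was -0.55 (adjusted p 0.0349) and was not called without replicate 1 or 2 (adjusted p 0.198 and 0.168).

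Of the beta subunits, 1 was called at 24 h. Suclg2 had a log2 level of 13.34, 13.44 and 13.42 in control and 12.24, 12.25 and 12.46 in Ikaros cells at 24 h, a difference of -1.08 (limma, adjusted p 2.16e-10). Sucla2 had 12.58, 12.57 and 12.22 in control and 12.79, 12.58 and 12.78 in Ikaros cells, a difference of 0.26 (adjusted p 0.155). Within a library, Suclg2 exceeded Sucla2 by 0.94 ± 0.23 in control cells and was below it in Ikaros cells (-0.40 ± 0.13, SD, n = 3), so the order of the subunit mRNAs turned over. Suclg1 minus Suclg2 was 0.68 ± 0.11 in control and 1.29 ± 0.02 in Ikaros cells. This pairing too was chosen after the values had been seen and carries no test.

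Fh1 (ENSMUSG00000026526; chromosome 1, 175600374 to 175625635, reverse strand) encodes fumarase, which hydrates fumarate to malate in the matrix and, from the same gene, in the cytosol. Its log2 level at 0 h was 14.19, 14.20 and 14.18 in control and 14.22, 14.26 and 14.13 in Ikaros cells. At 24 h the values were 14.27, 14.31 and 14.22 in control and 13.51, 13.71 and 13.51 in Ikaros cells. The lines overlapped at 0 h and were far apart at 24 h. At 6, 12, 18 and 24 h the difference was -0.25, -0.37, -0.71 and -0.69 (limma, SE 0.08 each, adjusted p 0.0139, 0.000351, 1.34e-08 and 1.85e-08). Fh1 was therefore the earliest of the members to be called lower, but the 6 h call was lost without replicate 1 (-0.23, adjusted p 0.167) or replicate 2 (-0.28, adjusted p 0.127) and in the fit of only the groups compared (adjusted p 0.249). That fit also gave an adjusted p of 0.0508 at 12 h. The values of 18 h and 24 h were close. From 0 h to 24 h it changed by -0.70 (adjusted p 7.22e-06). Fh1 overlaps Kmo on the opposite strand, and the strand setting of the gene counting is not given in the sources used here.

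Mdh2 (ENSMUSG00000019179; chromosome 5, 135778480 to 135790398, forward strand) and Mdh1 (ENSMUSG00000020321; chromosome 11, 21556787 to 21572367, reverse strand) encode the mitochondrial and cytosolic malate dehydrogenases. They interconvert malate and oxaloacetate and together run the malate-aspartate shuttle, which carries reducing equivalents into mitochondria. The log2 level of Mdh2 at 12 h was 16.06, 16.09 and 16.10 in control and 15.96, 16.08 and 16.22 in Ikaros cells. At 24 h it was 16.04, 16.04 and 16.10 in control and 15.28, 15.30 and 15.25 in Ikaros cells. The groups overlapped at 12 h and stood apart at 24 h with little spread. The lines differed by 0.00 after 12 h, -0.45 after 18 h and -0.78 after 24 h (limma, SE 0.08, adjusted p 1.85e-05 at 18 h and 1.50e-09 at 24 h). At 0 h Mdh2 was 16.04, 16.08 and 16.16 in control and 16.00, 15.78 and 15.94 in Ikaros cells, lower without overlap but not called (-0.18, adjusted p 0.175).

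The log2 level of Mdh1 at 24 h was 14.95, 14.99 and 14.84 in control and 15.21, 15.13 and 15.33 in Ikaros cells. Ikaros libraries were all higher, by 0.30 (limma, SE 0.11, adjusted p 0.0201). The call was lost without replicate 1 (0.32, adjusted p 0.141) and without replicate 3 (0.21, adjusted p 0.0772). At 18 h the difference was 0.29 (adjusted p 0.0253), and it was not called without replicate 1 (adjusted p 0.193) or replicate 2 (adjusted p 0.130). Both calls rest on small differences, and that at 18 h was also lost in the fit of only the groups compared (adjusted p 0.103). At 0 h the difference was 0.06, and its change to 24 h was 0.24 (interval -0.08 to 0.57) and was not called. At 2 h the difference was 0.26, and at 6 h it was 0.21 without overlap, neither of them called (adjusted p 0.102 and 0.130). Its change from 2 h to 24 h was 0.04 (interval -0.28 to 0.36) and was not called. Mdh1 overlaps Wdpcp on the opposite strand and the miRNA gene Gm22990 on the same strand.

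Mdh1 minus Mdh2 within a library was -1.10, -1.05 and -1.26 in control and -0.07, -0.17 and 0.07 in Ikaros cells at 24 h. The mitochondrial form thus exceeded the cytosolic form in control cells, and their levels were about equal in Ikaros cells. From 0 h to 24 h the difference between the lines was 0.24, 0.28, 0.33, 0.22, 0.74 and 1.08. The lines did not overlap at 0, 6, 18 and 24 h, each with an exact permutation p = 0.1 (adjusted p 0.171), so a smaller gap was present before induction.

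At 24 h the 3 Ikaros and 3 control libraries did not overlap in 9 of 9 members, 3 of them higher and 6 lower in Ikaros cells, and they did not overlap in 71.0% of all genes. At 0, 2, 6, 12 and 18 h the number of members without overlap was 2, 1, 4, 3 and 5, where 32.7%, 27.9%, 41.0%, 51.0% and 64.5% of all genes did not overlap.

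Promoter sequence is given for Idh1, the member that rose most, and for Fh1 and Mdh2, which fell, as examples of the letters upstream of genes that moved in opposite directions. The sequences are RefSeq windows on GRCm38, cut to the bases before the annotated starts, 5′ to 3′ along the gene's strand. Capitals mark CCAAT, the core TGGGAA that Ikaros binds, and the palindrome CTCGCGAG, on either strand.
Idh1, chr1:65186501-65186729, reverse strand: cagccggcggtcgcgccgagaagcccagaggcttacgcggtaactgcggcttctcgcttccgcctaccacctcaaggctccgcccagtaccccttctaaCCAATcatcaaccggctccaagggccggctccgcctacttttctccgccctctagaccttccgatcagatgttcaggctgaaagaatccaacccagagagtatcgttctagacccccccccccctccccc
Fh1, chr1:175625636-175625885, reverse strand: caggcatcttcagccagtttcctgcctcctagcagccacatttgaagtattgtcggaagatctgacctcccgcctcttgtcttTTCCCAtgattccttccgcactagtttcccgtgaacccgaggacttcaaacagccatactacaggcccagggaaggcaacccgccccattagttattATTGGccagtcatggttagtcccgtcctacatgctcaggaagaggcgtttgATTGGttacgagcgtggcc
Mdh2, chr5:135778399-135778479, forward strand: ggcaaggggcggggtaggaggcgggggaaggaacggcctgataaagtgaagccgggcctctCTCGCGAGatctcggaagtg

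The Idh1 stretch holds 1 CCAAT and no TGGGAA, the Fh1 stretch 2 CCAAT and 1 TGGGAA, each of them on the opposite strand, and the Mdh2 stretch 1 CTCGCGAG. Over whole windows, TGGGAA was present for Cs, Fh1, Ogdh and Suclg1 and in 25.6% of all 32851 windows, and CCAAT for 6 members and in 37.4%. CTCGCGAG occurred 3 times in the Mdh2 window, for no other member, and in 0.919% of all windows. CACGTG was found for Ogdh (7.15% of windows) and TGACNNNGC for Mdh1 (12.4%). The NRF1 motif (6.23%), TCACNCCAC (1.24%) and CCGGAAG (8.86%) were found for no member. These 8 motifs, none of which overlaps another in the stretches shown, were chosen with results or sequences in view, and a match is a description of letters only. A member was counted if any of its windows held the motif, and Ogdh has 6 windows and Idh1 2, whereas the shares are of single windows. Windows were found for 8 of 9 members, and Idh3a had no entry.

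The genes around the cycle were read from lists of the remaining cycle enzymes and of the routes into and out of it. Their counts at 24 h stand against 62.9% of all genes called, 31.0% higher and 31.9% lower. Values given for these genes run from control to Ikaros cells at 24 h and are not changes from 0 h. At 0 h 1 of 11 other cycle enzymes, 3 of 11 pyruvate entry genes and 1 of 8 glutamine entry genes were called, all higher. No gene of the other lists was called there, and 8.33% of all genes were. The median of the biogenesis regulators at 0 h was -0.26, and that of all genes -0.03. Of 11 other cycle enzymes, 7 were called at 24 h, 1 higher and 6 lower (median log2 difference -0.27). Suclg2 was the most changed, followed by Sdhd (-0.78, adjusted p 0.000465) and Sdhb (-0.63), which encode the membrane anchor and iron-sulfur subunits of succinate dehydrogenase. Sdha, its flavoprotein subunit, differed by -0.02 and was not called. Without replicate 1 and without replicate 2 only 3 of the 11 were called, so this count is not firm.

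Pyruvate enters through the pyruvate dehydrogenase complex, which kinases switch off and phosphatases switch on. Of 11 listed genes of that entry, 8 were called, 1 higher and 7 lower (median -0.75), and Pdk2 and Pdk4 were not listed. The phosphatase Pdp1 went from 11.02, 11.08 and 11.39 in control to 9.12, 9.34 and 9.27 in Ikaros cells, a difference of -1.92. The kinase Pdk1, with the opposite action, went from 12.83, 12.98 and 12.70 to 10.86, 11.02 and 11.07, a difference of -1.86. Pdha1, the E1 alpha subunit of the complex, was higher, from 13.30, 13.42 and 12.95 to 14.71, 14.54 and 14.74, a difference of 1.44 (limma, SE 0.14). For each of these genes the lines were fully apart.

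Glutamine feeds the cycle at 2-oxoglutarate. Of 8 genes of that route 7 were called at 24 h, 1 higher and 6 lower (median -0.78). The glutamine transporter Slc1a5 had 15.38, 15.45 and 15.58 in control and 13.87, 14.13 and 13.98 in Ikaros cells, a difference of -1.48. The glutaminase Gls2, which converts glutamine to glutamate, differed by -2.88, although its level was low (7.10 ± 0.24 for control and 4.22 ± 0.52 for Ikaros libraries, SD, n = 3). Both were called, and each Ikaros library lay below every control library.

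Of 10 listed genes of citrate and malate export and of the shuttles, 9 were called, 3 higher and 6 lower (median -0.38), and Me1 was not listed. Slc25a13, an aspartate-glutamate carrier of the malate-aspartate shuttle, went from 11.65, 11.80 and 11.66 to 9.79, 9.99 and 9.72, a difference of -1.87. Me2, the mitochondrial malic enzyme, differed by -0.87, and Aco1, the cytosolic aconitase that makes isocitrate for Idh1, by 0.90. Aco1 and Idh1 were thus both higher in Ikaros cells at 24 h.

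Nnt, which makes NADPH in the mitochondria from NADH and the proton gradient, went from 14.98, 14.87 and 14.99 to 16.38, 16.40 and 16.14, a difference of 1.36. D2hgdh, which oxidizes D-2-hydroxyglutarate, was higher by 0.65. Both were called. The largest negative differences between the lines were among the regulators of mitochondrial biogenesis. All 7 listed were called, 1 higher and 6 lower (median -0.64), and Ppargc1a was not listed. The coactivator Ppargc1b had 11.63, 11.54 and 11.59 in control and 7.92, 8.38 and 7.11 in Ikaros cells, a difference of -3.78. The coactivator Pprc1 had 13.90, 13.88 and 13.94 in control and 10.34, 10.78 and 10.23 in Ikaros cells, a difference of -3.46. That of Nrf1, a transcription factor of respiratory chain genes, was -0.82. The plot of genes around the cycle gives the single genes.

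The members varied together in part. Over the 36 libraries, which share line and time, Pearson's r was 0.92 between Idh3a and Fh1, 0.86 between Idh3a and Mdh2 and -0.91 between Idh1 and Idh3a. The genes with the pattern most like that of Idh3a were Gart (r = 0.99) and Gars (0.98), and those most like Fh1 were Dars (0.96) and Emg1 (0.96). Idh1 was most like Maf1 and Hdac5 (0.94 each), Mdh2 like Got2 and Txnl1 (0.94 each), and Suclg1 like Atp5o (0.93) and Psmb6 (0.91). Cs was most like Ganab (0.91) and Mtpn (0.88), and Idh2 like Stk25 (0.87) and Dnhd1 (0.84). Ogdh was most like Rnf126 (0.81) and Pfn1 (0.79), and Mdh1 like Emc3 and Arhgdia (0.79 each). These values describe likeness across libraries and carry no test.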

How the data were processed

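Strand-specific mRNA libraries of B3 cells were made and sequenced by the authors. Per the study's methods, the authors trimmed the reads, mapped uniquely placed fragments to mm10 with TopHat2 and counted them per gene with HTSeq. They then used cqn, which adjusts for gene length and GC content, and non-parametric ComBat for effects of library preparation. The deposited table is on a log2 scale, which is how cqn reports, and its lowest value is exactly 1. The table does not name the base. Variation that ComBat took out before deposition is hidden from the tests below, so standard errors may be too small. Tool versions, annotation and strand setting of the counting are not given in the sources used here. The table holds no counts, so the depth each library reached is unknown from it and no counting error can be given, and n = 3 per group limits the precision.

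Groups came from the labels. One limma 3.58.1 model in R 4.3.3 fitting 12 group means gave 22 contrasts, tested on simulated data first. P-values are two-sided and adjusted by Benjamini-Hochberg over 12762 genes. They rest on 1 spread per gene between libraries of a group, pooled over the 12 groups of both lines without a batch term. The same batch numbers recur over times and lines, and the libraries were treated as independent. The members and lists were chosen with earlier results of these data known. The named genes are the 9 members, up to 3 called genes of largest change at 24 h in each list, the 2 genes most correlated with each member, and Ikzf1. Other genes (Idh3b, Idh3g, Sucla2, Sdha) were named after their values were seen, and some listed genes are not reported here. Isoenzyme differences within a library were tested by exact permutation with scipy 1.17.1. Gene positions are from GENCODE mouse on GRCm38, the build also called mm10, and promoters from RefSeq on GRCm38. The labels give control and Ikaros cultures shared batch numbers, so these pair the libraries. Over the 18 pairs, the correlation of deviations from the group mean ran from -0.0620 to 0.507 (median 0.127, 12 above 0.1). The alternatives were this block, with and without the 0 h cultures apart, a filter at the 25th percentile, quantile normalization, trend and robust eBayes, fits restricted to the groups compared, and fits without each replicate.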

Additional observations from a re-analysis of the deposited data

Results flagged for a closer look

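The Ikaros minus control difference itself changed with time in these members, by the limma test of the change on the log2 scale. From 0 h to 24 h it changed by 1.78 for Idh1, -1.60 for Idh3a, -0.70 for Fh1 and -0.60 for Mdh2. From 2 h to 24 h it changed by 1.61 for Idh1, -1.75 for Idh3a, -0.45 for Ogdh, -0.55 for Suclg1, -0.77 for Fh1 and -0.77 for Mdh2. The comparisons share the 24 h libraries. The values from 0 h also compare collection occasions, and those from 2 h do not.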

How the results depend on the processing

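No difference or count changed its direction. Where culture batch was a replicate block and the 0 h cultures stood apart, the number of members called was 1 at 0 h (0 without the block) and 2 at 2 h (1 without). With the replicate block alone, 1 member was called in Ikaros cells at 2 h against 0 h, 2 in Ikaros cells at 6 h and 2 in control cells at 6 h (0 without the block in each). The shares of all genes called with a block are not reported here. The fit with the 0 h cultures apart gives no comparison of a line with its own 0 h, so none was run there. In fits of only the groups compared, 0 members were called between the lines at 6 h (1 otherwise), 1 in Ikaros cells at 12 h against 0 h (5 otherwise) and 4 of the other cycle enzymes at 24 h (7 otherwise). Without each replicate in turn, the counts were 0 to 3 at 2 h, 0 to 2 at 6 h, 0 to 2 for the change of the difference by 12 h, 2 to 3 in Ikaros cells at 12 h and 3 to 6 among the other cycle enzymes at 24 h. At 24 h Idh2 was called in fits of only the groups compared (adjusted p 0.0405) and without replicate 3 (0.0190). The smaller fits hold fewer libraries, and the cause of these changes was not tested. The block with the 0 h cultures apart also called Idh2 at 24 h, and either block gave 8 called among the other cycle enzymes. No other call of a member between the lines at 24 h changed with the block.

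The depth behind the values is unknown from the table, and the batch correction was made before deposition. The 0 h cultures came from other occasions. Line and sorted population cannot be told apart.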
